A study of Mus musculus with 15 samples.

Results

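The 9 genes described here encode 8 proteins of the contractile apparatus of smooth muscle and the matrix protein elastin: Acta2, Myh11, Tagln, Cnn1, Des, Lmod1, Mylk, Tpm2 and Eln. They were taken by gene name from a table of 24831 gene names, and they account for 16 of its 49404 transcripts. The set was selected on these same deposited values, with earlier results of the table known, so the levels below are a description with no test. Total RNA of the hypothalamus was sequenced on postnatal day 15 in mice of the outbred stock CD-1, in a series on transgenerational thyroid hormone effects in the F2 generation. Its 15 samples formed 5 groups of 3, labelled Control, PGM, PGF, HM and HF. All 5 groups shared the stock, the age and the tissue. The labels gave no genotype, treatment, sex or litter beyond these codes, which are therefore used as they stand. Each value is the authors' mean RPKM of a group (reads scaled to transcript length and to the total of mapped reads), with no value per sample, so no SD, interval or p-value can be attached and it cannot be seen whether 1 sample carried a difference. Sequencing depth is unknown.

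Smooth muscle cells ring the arteries and arterioles of the brain and set the blood flow of the tissue. Their force comes from smooth muscle myosin pulling on filaments of smooth muscle actin after a calcium-dependent kinase has phosphorylated the myosin light chain, while actin-binding proteins stabilise the filaments and desmin links them to the cell's scaffold. The same cells deposit elastin, which is crosslinked on a scaffold of microfibrils into the recoiling sheets of the arterial wall. Transcription of the contractile genes depends on serum response factor (SRF) bound to a short DNA element called the CArG box, with the coactivator myocardin.

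The start sites of the 9 genes were searched for that element, as a description only. RefSeq windows (GRCm38.p6) of 300 bases, from 250 before to 50 after the annotated start, matched 6 of the 9 genes: Acta2, Cnn1, Des, Lmod1, Mylk and Tpm2. The CArG box reads the same on both strands, so 1 search covered both. It was absent in its exact form from all 6 windows, and 1.63% of all 32851 windows in the table held it. The windows of Myl9 and Srf, which are outside the 9 genes, were searched as well and held 1 and 2 exact boxes. With 1 of the 6 middle bases allowed to be any base, 1 of the 6 windows held it, that of Acta2, against 9.98% of all windows. The relaxed form was added after the exact form gave no match in these 6 windows. The Acta2 window, on the minus strand at chr19:34255324-34255623, held 2 such elements, CCCTATATGG and CCTTGTTTGG, whose first bases lay at -84 and -34 from the annotated start. The RefSeq start of Acta2 lay 217 bases downstream of the nearest GENCODE transcript start. The windows of Cnn1 (plus strand, chr9:22099003-22099302) and Des (plus strand, chr1:75360042-75360341) are shown beside it, since these genes had the largest and the smallest difference between HF and Control. Capitals mark the relaxed CArG boxes, which are a match of letters and no evidence of binding.
Acta2: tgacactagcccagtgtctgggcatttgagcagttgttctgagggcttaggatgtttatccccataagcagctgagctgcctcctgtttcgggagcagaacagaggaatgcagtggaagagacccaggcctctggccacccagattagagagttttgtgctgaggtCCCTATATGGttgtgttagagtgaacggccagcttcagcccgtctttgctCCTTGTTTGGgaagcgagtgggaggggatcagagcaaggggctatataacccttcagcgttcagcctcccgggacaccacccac
Cnn1: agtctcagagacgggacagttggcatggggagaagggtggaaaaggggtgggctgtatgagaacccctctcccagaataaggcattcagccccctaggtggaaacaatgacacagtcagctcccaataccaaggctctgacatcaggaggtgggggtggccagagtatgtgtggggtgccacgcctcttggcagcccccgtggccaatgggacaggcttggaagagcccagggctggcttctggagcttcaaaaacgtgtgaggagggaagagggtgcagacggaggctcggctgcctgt
Des: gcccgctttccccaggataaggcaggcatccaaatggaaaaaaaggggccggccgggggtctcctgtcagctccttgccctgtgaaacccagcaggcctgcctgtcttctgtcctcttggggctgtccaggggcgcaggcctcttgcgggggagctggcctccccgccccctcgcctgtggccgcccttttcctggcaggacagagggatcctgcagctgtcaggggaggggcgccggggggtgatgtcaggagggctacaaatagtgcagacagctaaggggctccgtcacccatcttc

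All 9 genes were at their highest level in HF. Gene names were kept for comparison where the 5 group means averaged 1 RPKM or more, and of these 17481 names 24.6% were highest in HF. HF was between 1.22 and 3.07 times the highest of the other 4 groups, with a median of 1.77 over the 9 genes, whereas those other 4 groups differed among themselves by between 1.17 and 1.56 times.

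Acta2, the smooth muscle actin (chromosome 19, 34241090 to 34255590 in GRCm38, minus strand), was at 45.3 RPKM in HF, against 19.6 in Control, 14.9 in PGM, 22.6 in PGF and 17.2 in HM. The HF level was thus 2.01 times that of PGF, the next group. Tagln, which encodes transgelin, an actin-binding protein of smooth muscle (chromosome 9, 45929619 to 45936058, minus strand), was at 23.7 RPKM in HF, against 11.4 in Control, 9.97 in PGM, 12.8 in PGF and 9.72 in HM. The order of the groups was that of Acta2 except at the bottom, where PGM and HM changed places.

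Tpm2, a tropomyosin that lies along the actin filament (chromosome 4, 43514711 to 43523765, minus strand), was at 16.9 RPKM in HF, against 7.63 in Control, 8.21 in PGM, 9.62 in PGF and 7.61 in HM. Cnn1, calponin, which binds actin and tropomyosin (chromosome 9, 22099216 to 22109630, plus strand), was at 2.74 RPKM in HF, against 0.705 in Control, 0.785 in PGM, 0.89 in PGF and 0.635 in HM. Only through HF did Cnn1 reach a mean of 1 RPKM over the groups, and at such levels single means may be imprecise. Lmod1, leiomodin, which seeds actin filaments in smooth muscle (chromosome 1, 135324807 to 135368065, plus strand), stayed below that mean, with 1.41 RPKM in HF, against 0.79 in Control, 0.68 in PGM, 0.89 in PGF and 0.82 in HM. Of the 9 genes 8 passed the filter, and 7 would have passed on the other 4 groups alone.

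On the myosin side, Myh11, the smooth muscle myosin heavy chain (chromosome 16, 14194535 to 14291372, minus strand), was at 8.86 RPKM in HF, against 3.69 in Control, 2.98 in PGM, 4.43 in PGF and 3.61 in HM. Its groups took the same order as those of Acta2, and HF was 2.0 times PGF. Mylk, the myosin light chain kinase (chromosome 16, 34745210 to 35002420, plus strand), was at 7.98 RPKM in HF, against 5.71 in Control, 5.95 in PGM, 6.22 in PGF and 4.98 in HM, a narrower spread. Des, desmin, an intermediate filament protein of all muscle types (chromosome 1, 75360329 to 75368579, plus strand), was at 3.33 RPKM in HF, against 2.72 in Control, 2.5 in PGM, 2.42 in PGF and 2.32 in HM. It varied least of the 9.

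Eln, elastin (chromosome 5, 134702593 to 134747323, minus strand), was at 43.8 RPKM in HF, against 24.7 in Control, 17.9 in PGM, 19.85 in PGF and 15.9 in HM. Like the contractile genes it stood highest in HF. Control was second, as it was for Des, while PGF was second for the other 7 genes.

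**Figure D1:**
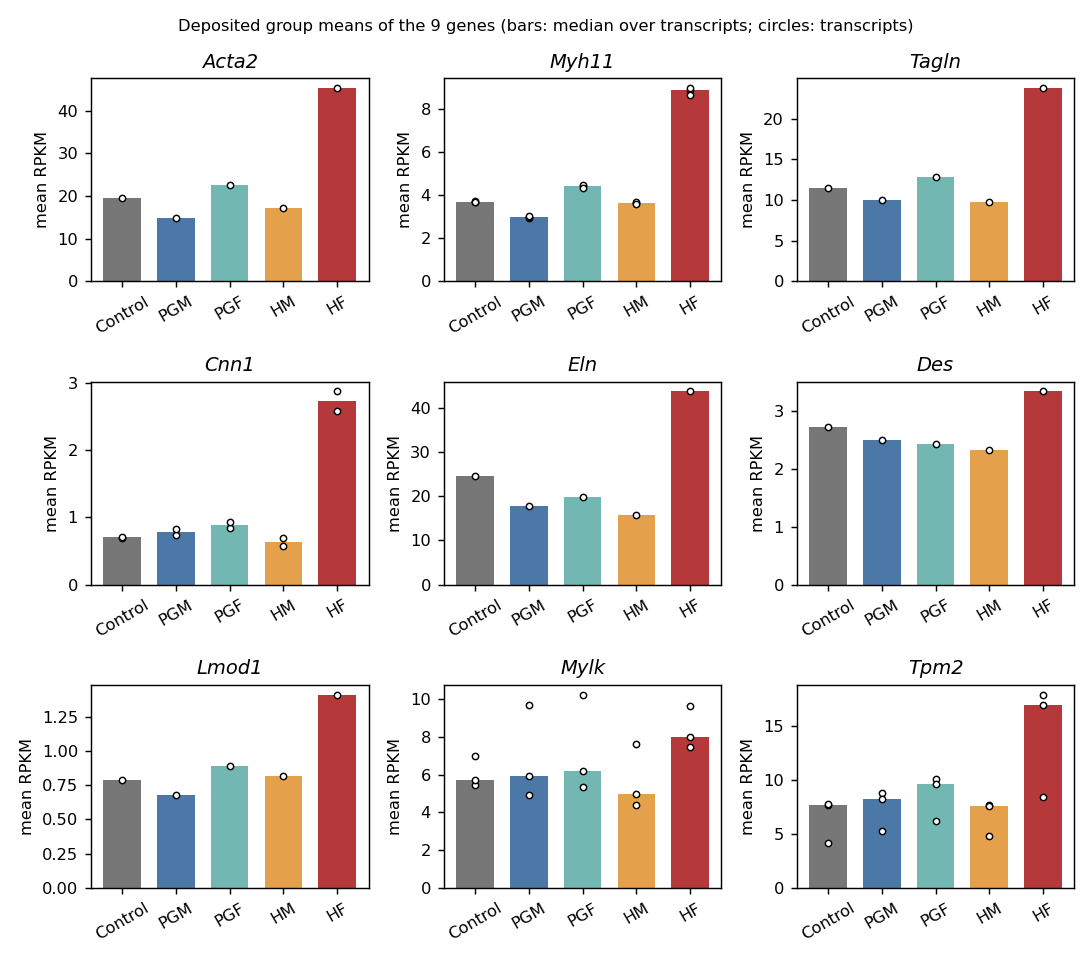
Deposited mean RPKM (vertical axes, linear and from 0, with a scale of its own for each gene) of the 9 genes in the 5 groups. Bars are the median over a gene's transcripts and circles the single transcripts. HF is the tallest bar in all 9 panels, from 1.22 times the next group in Des to 3.07 times in Cnn1.

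The comparison of HF with Control was made on log2(mean RPKM + 0.5), a scale on which weakly expressed genes differ by less than their plain ratio, and a gene was counted from 1.5-fold, a difference of 0.585. Acta2 differed by 1.19 (2.28-fold), Myh11 by 1.16 (2.23-fold), Tpm2 by 1.101 (2.15-fold) and Tagln by 1.02 (2.03-fold). Cnn1 had the largest difference with 1.42 (2.68-fold, or 3.88-fold as a plain ratio of the deposited means), and Eln differed by 0.81 (1.76-fold). These 6 of 9 genes were at least 1.5-fold higher in HF, and 0 of 9 were lower. Over all kept genes, 0.658% were at least 1.5-fold higher and 0.177% lower, but the set was chosen with this contrast known, so nothing is read from the excess. The other 3 genes were also above Control, Lmod1 by 0.57, Mylk by 0.45 and Des by 0.25. The median over the 9 genes was 1.02, against 0.02 over all kept genes. Among these 17481 names ordered by the difference, Cnn1 came in place 12, Acta2 in 26, Myh11 in 27, Tpm2 in 32, Tagln in 37 and Eln in 56, while Mylk came in place 194 and Des in 763. The set was chosen with these differences known, so nothing is read from the places either. Cnn1 was among the ranked names only through its HF level, and Lmod1 was not among them.

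HF was set against each of the other groups in turn, a choice made after the values were seen. The count of genes at least 1.5-fold higher in HF was 7 of 9 against PGM, 6 of 9 against PGF, 7 of 9 against HM and 6 of 9 against the mean of the other 4 groups. Of all kept genes 2.21%, 1.5%, 1.31% and 0.618% were that much higher. The median differences of the 9 genes were 1.21, 0.87, 1.19 and 1.08, beside 0.02, 0.05, 0.05 and 0.03 over all kept genes. The set was chosen with the HF levels known, so nothing is read from these counts. All 4 share the HF mean and are not independent of each other. In bulk tissue, a change in the number of cells of a type and a change in RNA per cell cannot be told apart.

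In HM the 9 genes lay close to Control or below it, with a median of -0.18 beside -0.03 over all kept genes. Eln alone was past 1.5-fold, at 0.65 times Control (a difference of -0.62), so 1 of 9 was counted lower, where 0.87% of kept genes were lower and 0.675% higher. This count is lost when the groups are scaled to equal medians, where Eln differed by -0.583. The contractile genes differed from Control by -0.22 in Tagln, -0.18 in Acta2, -0.18 in Mylk, -0.19 in Des, -0.09 in Cnn1, -0.03 in Myh11, -0.004 in Tpm2 and 0.03 in Lmod1. The signs of Mylk, Myh11 and Tpm2 are not stable, since another choice of transcript put Mylk at 0.12, median scaling put Myh11 at 0.007, and both kinds of change put Tpm2 above Control.

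In PGM none of the 9 was past 1.5-fold, where 2.35% of kept genes were higher and 2.29% lower. Eln differed by -0.45, Acta2 by -0.38, Myh11 by -0.27 and Tagln by -0.19, while Tpm2, Cnn1 and Mylk lay slightly above Control by 0.10, 0.09 and 0.05. The median was -0.13, beside 0.005 over all kept genes. In PGF again 0 of 9 were past 1.5-fold, beside 2.16% of kept genes higher and 1.9% lower. Here 7 of 9 lay above Control, and the median over the 9 was 0.16, beside -0.03 over all kept genes. Tpm2 led with 0.32, followed by Myh11 with 0.23, Cnn1 with 0.21 and Acta2 with 0.20. Eln differed by -0.31 and Des by -0.14. Elastin and 7 of the 8 contractile genes, all but Des, therefore lay on opposite sides of Control in PGF, and on the same side in HF.

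**Figure D2:**
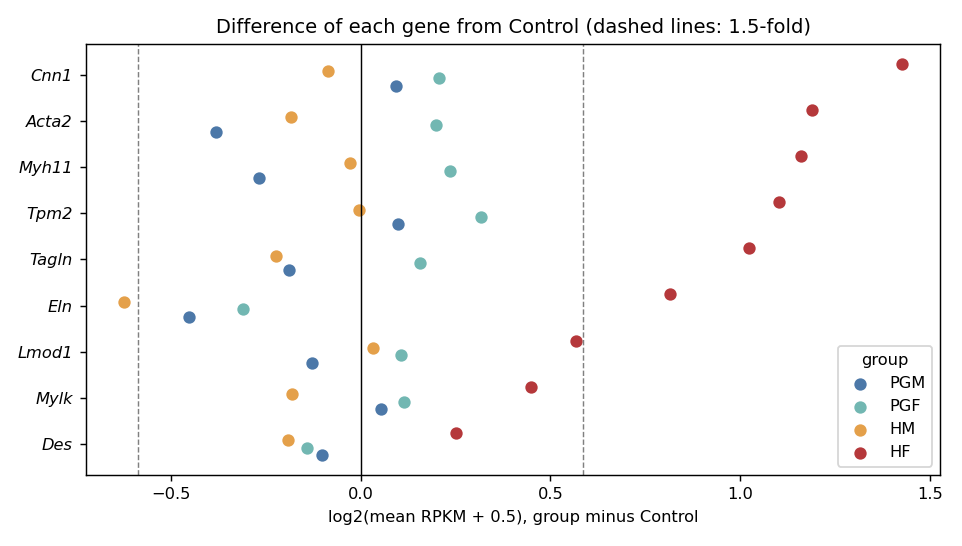
Difference of each gene from Control on the log2(mean RPKM + 0.5) scale (horizontal axis) for PGM, PGF, HM and HF, with genes ordered by the HF difference and dashed lines at 1.5-fold. The HF points of 6 genes lie beyond the right line, from 0.81 in Eln to 1.42 in Cnn1, and the only point beyond the left line is Eln in HM at -0.62.

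The pairs of codes that share their first letters were also compared. HM was below HF in 9 of 9 genes, with a median of -1.19 beside -0.05 over all kept genes, and 7 of 9 were at least 1.5-fold lower in HM, beside 1.31% of kept genes lower and 0.366% higher. The largest differences were those of Cnn1 (-1.51), Eln (-1.44), Acta2 (-1.37) and Tagln (-1.25), and the 2 genes not counted were Lmod1 with -0.53 and Des with -0.44. PGM was below PGF in 8 of 9 genes, with a median of -0.22 beside 0.03 over all kept genes. The share of all kept genes below or above 0 was not computed, here or for the other counts of that kind. None of the 9 was past 1.5-fold between PGM and PGF, beside 0.435% of kept genes higher and 0.555% lower. Acta2 came nearest to the threshold with -0.5815, a ratio of 0.668, followed by Myh11 with -0.50. Scaling the groups to equal medians or upper quartiles, or a pseudocount of 0.1, carried Acta2 past it.

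RPKM is scaled to transcript length, so levels can be set side by side between genes. In Control the order from high to low was Eln, Acta2, Tagln, Tpm2, Mylk, Myh11, Des, Lmod1 and Cnn1. In HF Acta2 stood above Eln, as it did in PGF and HM, and Myh11 stood above Mylk, as in no other group. The proportion of myosin heavy chain to actin barely moved: Myh11 was at 19.6% of the Acta2 level in HF, against 18.8% in Control, 20.0% in PGM, 19.6% in PGF and 21.0% in HM. Tagln was at 52.4% of Acta2 in HF, against 58.4% in Control, 66.9% in PGM, 56.7% in PGF and 56.5% in HM. Des, in contrast, was at 13.9% of Acta2 in Control, 16.8% in PGM, 10.7% in PGF and 13.5% in HM, but at 7.35% in HF. The ratio of Eln to Acta2 was 1.26 in Control and 1.20 in PGM, and lower at 0.88 in PGF, 0.92 in HM and 0.97 in HF. No spread between samples is known against which to judge these shifts.

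Of the 9 genes 5 had a single transcript in the table. The 3 transcripts of Myh11 gave nearly the same values, between 3.68 and 3.71 RPKM in Control and between 8.66 and 8.97 in HF. Those of Tpm2 differed in level, and all were higher in HF than in Control. Of the 3, 2 were at 7.63 and 7.74 RPKM in Control and 16.9 and 17.9 in HF, and the lowest, uc008sqd.1, was at 4.17 and 8.41. Mylk was the exception. Its transcripts uc007zbd.1 and uc007zbe.1 were highest in HF, at 7.49 and 7.98 RPKM, while uc007zbh.1 was highest in PGF, with 9.62 RPKM in HF, against 6.97 in Control, 9.68 in PGM, 10.24 in PGF and 7.63 in HM. This transcript differed from Control by 0.45 in PGM and 0.52 in PGF, where uc007zbe.1 differed by -0.20 and -0.09. In HF the 3 Mylk transcripts differed from Control alike, by 0.43, 0.45 and 0.44. The sources used here do not say how reads common to several transcripts were shared out.

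Actins are close relatives in sequence, so a part of the Acta2 value could come from other actin genes. The longest run of bases that the longest open reading frames of Acta2 and Actg2 have in common, shown here because Actg2 was also highest in HF, is 29 bases long, at bases 637 to 665 of the Acta2 frame, counted from its start codon (GENCODE M21).
Acta2 and Actg2: gacatcaaggagaagctgtgctatgtagc
No run of 50 bases in the Acta2 frame occurred in the frames of Actg2, Acta1, Actc1 or Actb, and 7 of 1085 (0.65%) occurred in that of Actg1, a cytoplasmic actin. The longest shared run was 47 bases with Actb, just under that length, and 56 with Actg1. Untranslated regions were not compared. The sources used here give no read length. Actg2, the enteric smooth muscle actin, was at 0.46 RPKM in Control and 1.82 in HF, a difference of 1.27, against 0.48 in PGM, 0.60 in PGF and 0.46 in HM. Acta1, the skeletal muscle actin, was at between 11.98 and 13.6 RPKM in every group, and Actc1, the cardiac actin, at no more than 0.25.

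Among 22 other genes of the smooth muscle cytoskeleton found in the table, 20 lay above Control in HF with a median of 0.24, and 2 of them, Actg2 and Crip1, were past 1.5-fold (beside the 0.658% of all kept genes given above). Actg2, with a mean of 0.765 RPKM over the groups, was under the filter and so is not part of that share. The filter kept 20 of the 22. Crip1, a small LIM protein, was at 21.7 against 13.9 RPKM. Myl9, the regulatory light chain that Mylk phosphorylates, was at 51.55 RPKM in HF, against 35.5 in Control, 27.1 in PGM, 31.35 in PGF and 29.5 in HM, a difference of 0.53 in HF that stayed under the threshold. The differences of this list in HF ran from -0.13 to 1.27, and several of its genes gave other patterns. Whether expression in other brain cells accounts for that was not tested. Ppp1r14a, an inhibitor of myosin phosphatase that oligodendrocytes also express, was at 31.9 RPKM in HF, against 26.3 in Control, 51.9 in PGM, 66.3 in PGF and 34.6 in HM, and the small heat shock gene Hspb1 was at 22.7 RPKM in PGM against 13.97 in Control. With those 2 genes, 2 of 22 were past 1.5-fold in PGM and 1 in PGF, none in HM.

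Genes that set smooth muscle tone did not share the HF pattern. Of 18 kinases, phosphatase subunits, channels and receptors, 0 were past 1.5-fold in HF, and the median was -0.01. The filter kept 17 of the 18. The largest differences of this list lay in PGM and PGF. Rgs4, which damps G protein signalling and is abundant in neurons, was at 433 and 438 RPKM there against 274 in Control and 272 in HF, and Agtr1a, the angiotensin receptor, was at 1.06 in PGF against 1.93 in Control. Prkg1, the cGMP-dependent kinase of relaxation, was at 10.4 RPKM in HF, against 11.2 in Control, 8.24 in PGM, 7.6 in PGF and 9.12 in HM, and the endothelin receptor gene Ednra was at 4.205 in Control, 2.82 in HM and 4.05 in HF.

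Of 19 transcription factors, cofactors and signals that control the contractile program, 0 were past 1.5-fold in HF, with a median of -0.0007. Srf was at 17.8 RPKM in Control and 18.2 in HF, with all groups between 17.0 and 19.1. Myocd, which encodes myocardin, was at 0.37 RPKM in HF, against 0.20 in Control, 0.22 in PGM, 0.17 in PGF and 0.14 in HM, too low a level for a fold to be read. Notch3, a receptor of smooth muscle cells and pericytes that stands in both lists, was at 18.9 RPKM in HF, against 19.4 in Control, 15.3 in PGM, 13.6 in PGF and 13.45 in HM. In the other groups this list lay somewhat lower, with medians of -0.23 in PGM, -0.22 in PGF and -0.21 in HM. Tgfb1, a growth factor that induces contractile genes, was at 2.34 RPKM in HF, against 3.17 in Control, 1.73 in PGM, 1.82 in PGF and 2.0 in HM, while Mef2c, also a neuronal factor, was at 30.8 in PGM against 19.8. Tbx18, a factor of mural cells, was at 2.62 RPKM in Control, 1.73 in HM and 3.11 in HF.

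Elastin's partners in the elastic fibre were described as a list of 21 microfibril, crosslinking and assembly genes. In HF 2 of 21 were past 1.5-fold, and the median was 0.12. These were Fbln5, fibulin-5, which tethers elastin to cells and microfibrils, at 5.44 RPKM in HF against 3.37 in Control, 2.93 in PGM, 3.92 in PGF and 4.2 in HM, and Mfap5, a microfibril glycoprotein, at 2.50 in HF against 1.48 (named after its value was seen). The main microfibril gene Fbn1 was at 3.66 RPKM in HF, against 3.03 in Control, 1.93 in PGM, 2.37 in PGF and 2.2 in HM. Lox, the lysyl oxidase that crosslinks elastin and collagen, was at 4.97 RPKM in HF, against 4.15 in Control, 2.32 in PGM, 2.61 in PGF and 2.51 in HM. Outside HF most of the list lay below Control, as Eln did, with 6 of 21 at least 1.5-fold lower in PGM (median -0.41), 2 in PGF (median -0.39, with Emilin2 higher at 2.89 against 1.585 RPKM) and 5 in HM (median -0.35). Loxl1 was at 5.49 RPKM in PGM and 5.71 in HM against 9.95 in Control, Mfap4 at 3.90 and 4.84 against 7.96, Efemp1 at 3.75 and 4.43 against 6.81, and Emilin1 at 1.91 and 2.36 against 3.60. Set against HF, 9 of 21 were at least 1.5-fold lower in HM.

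Markers of the other cells of vessels and their surroundings were listed beside these genes. In HF against Control none of 10 pericyte genes (median 0.03), none of 12 endothelial genes (median 0.05) and none of 8 genes of arterial endothelium (median 0.20) was past 1.5-fold. Their summed levels were 311 RPKM in Control and 327 in HF for pericytes, 439 and 477 for endothelium, and 82.9 and 96.8 for arterial endothelium, while the 9 genes summed to 77.0 and 154 RPKM. Pdgfrb, the receptor that defines mural cells, was at 20.3 RPKM in Control and 21.45 in HF, and Vtn at 110 and 123. Acta2 was accordingly at 2.11 times the level of Pdgfrb in HF, against 0.97 in Control, 0.87 in PGM, 1.35 in PGF and 1.20 in HM. Pericyte genes lay below Control in 10 of 10 in PGM and in HM, with medians of -0.25 and -0.26, and endothelial genes had medians of -0.13 and -0.18 there. Anpep, found in pericytes and fibroblasts, was at 1.82 RPKM in PGM and 2.16 in HM against 3.52, and Kdr, a receptor for vascular growth factor, at 8.89 and 9.13 against 13.75. Cdh5, the cadherin of endothelial junctions, was at 8.17 in PGM and 8.39 in HM against 11.6. Among arterial genes, Bmx was at 0.96 RPKM in Control and 1.40 in HF, Gja5 at 1.78 and 2.24, and Mgp, which smooth muscle also makes, at 38.6 and 49.2, with 24.6 in PGM.

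Markers of fibroblasts of the meninges and vessels lay below Control in the same groups as elastin. Of 12 markers, 10 were at least 1.5-fold lower in PGM (median -0.93), 4 in PGF (median -0.55) and 8 in HM (median -0.72). In HF 0 were past 1.5-fold and the median was 0.20. Their summed level was 344 RPKM in HF, against 303 in Control, 154 in PGM, 210.2 in PGF and 189.9 in HM. Ogn was at 14.4 RPKM in HF, against 13.0 in Control, 4.58 in PGM, 7.82 in PGF and 6.61 in HM, and Igf2 at 139.98, 122, 58.5, 82.9 and 74.8 in the same order. Slc13a4 and Slc22a6, transporters of the meninges, were at 5.25 and 2.26 RPKM in HM against 12.2 and 6.22 in Control. Against HF, 10 of these 12 markers were at least 1.5-fold lower in HM, beside the 7 of 9 genes described above. The part of meningeal tissue in the Eln values of PGM, PGF and HM, and in the HM against HF comparison, was not tested. In HF against Control the markers differed by between -0.16 and 0.43, and the 9 genes by between 0.25 and 1.42, so the ranges overlapped. The part of meningeal tissue in that comparison was not tested either.

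Of 16 genes of skeletal and heart muscle none was past 1.5-fold against Control in any group, and their sum stayed between 28.8 and 30.3 RPKM. Only 7 of the 16 passed the filter. For the others the 0.5 added before the log shrinks differences, so the count says little about them. The skeletal markers Ckm, Myh1, Myh2 and Tnnc2 were at no more than 0.385 RPKM in any group. Mylpf was at 1.18 RPKM in Control and 1.37 in HF, Tnnt2 at 2.22 and 2.48, and Mb, myoglobin, at 1.44 and 1.22. Of 8 matrix and signalling genes that SRF and TGF-beta can induce, 7 lay above Control in HF with a median of 0.23, and Ctgf was past 1.5-fold at 17.2 against 10.95 RPKM. Cyr61 was at 7.31 against 5.40, Thbs1 at 7.22 against 6.06 and Fn1, fibronectin, at 37.0 against 39.6, with 19.8 in PGM.

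**Figure D3:**
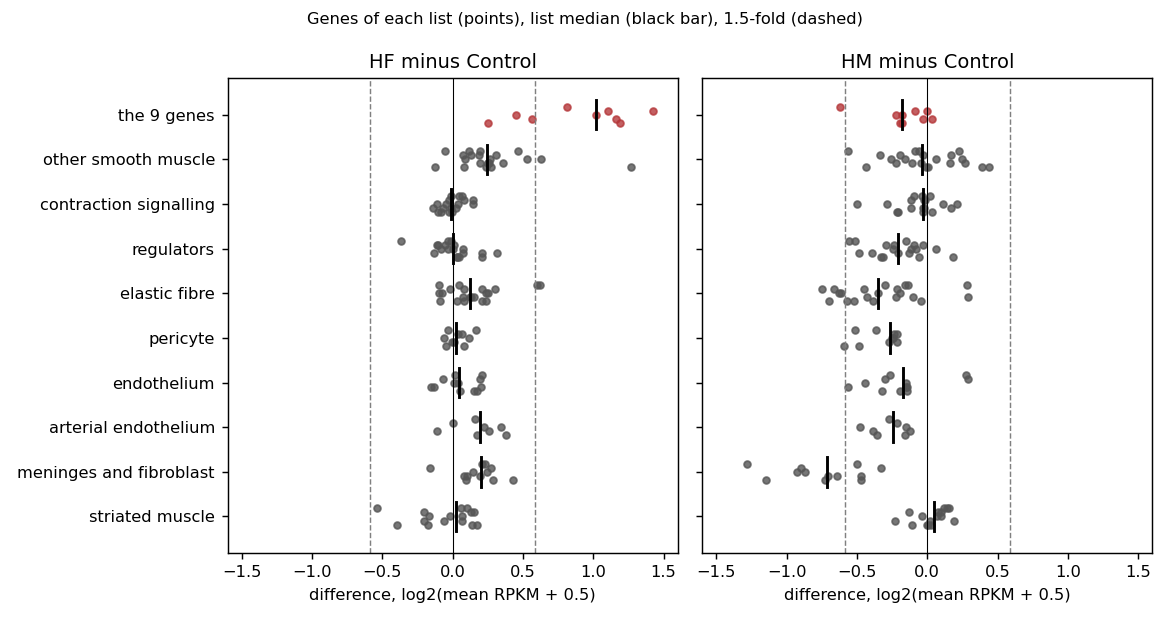
Difference from Control on the log2(mean RPKM + 0.5) scale (horizontal axes) of HF (left) and HM (right) for the 9 genes and 9 further gene lists (rows). Each point is a gene, black bars are list medians and dashed lines mark 1.5-fold. The 9 genes have a median of 1.02 in HF, where the medians of the other lists lie between -0.01 and 0.24, and in HM the meningeal and fibroblast list lies lowest with a median of -0.72.

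Some features of the series as a whole bear on these comparisons. Hypothalamic markers were present in every group, with Oxt, Avp and Trh at 75.95 RPKM or more and Otp between 3.15 and 8.45. The share of hypothalamus in each group was not tested. In PGM and PGF 8 and 9 of 13 hypothalamic markers were at least 1.5-fold below Control, against 1 in HM and 0 in HF. Thalamic markers were past 1.5-fold higher in 8, 7, 3 and 0 of 8 genes in PGM, PGF, HM and HF. Pituitary hormone genes were far higher in PGF in 8 of 8 (Gh 1363 against 39.8 RPKM) and at least 1.5-fold lower in HF in 4 of 8. The choroid plexus list had 4 of 9 genes higher in PGF and 1 in HF, which was Ttr, at 18.7 RPKM against 7.01. Red blood cell genes were at least 1.5-fold lower in 4 of 5 in PGM and in HM. In HF only Slc4a1 was past 1.5-fold, at 1.74 against 0.88 RPKM (named after its value was seen). Its mean over the groups, 0.942 RPKM, was under the filter. The 4 Y-linked genes were higher than Control in all other groups, with Ddx3y at 15.9 RPKM in HF, 16.75 in HM, 30.4 in PGM and 31.97 in PGF against 2.52. Xist, on the X chromosome, was at 35.4 RPKM in HF, 26.4 in HM, 14.2 in PGM and 11.6 in PGF against 44.0 in Control. Its difference between HM and HF was -0.42, and that of Ddx3y was 0.07 (Xist was named after its value was seen). The share of each of these tissues, and of males, in the HF difference was not tested.

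Genes with the most similar pattern over the 5 groups were found by the root mean square distance between profiles centred on their own mean, on the log2(mean RPKM + 0.5) scale. The median distance of all kept genes from the median profile of the 9 genes was 0.43. The nearest was Cytl1, a small secreted protein, at a distance of 0.13, with 3.77 RPKM in HF, against 1.28 in Control, 1.445 in PGM, 1.66 in PGF and 0.995 in HM. Others among the 10 nearest were H2-Aa, a class II antigen-presenting chain (4.975 RPKM in Control and 8.37 in HF), Col13a1, a transmembrane collagen (1.175 and 2.085), Ifit1 and Ifitm3, genes of the interferon response (0.88 and 2.30 for the former, 15.4 and 23.6 for the latter), Myl9 and Tinagl1, a basement membrane protein (3.91 and 6.40). The remaining 3 were the microRNA gene Mir344-2 and 2 names of clones, AB033515 and mKIAA0866. A clone name can stand for a gene also listed under another name, here possibly 1 of the 9. This was not checked, so the clones are not counted as further genes of like pattern. For comparison, the 9 genes themselves lay between 0.05 (Tagln) and 0.30 (Des) from their own median.

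Seen alone, Eln had partly other neighbours. Mir344-2 was nearest with a distance of 0.09, followed by Itih2, a hyaluronan-binding protein, with 0.16 and Col3a1, a fibrillar collagen that stands in the fibroblast list, also with 0.16. Wnt6, a signalling ligand, lay at 0.21, and the remaining one was a clone name. Col3a1 was at 33.4 RPKM in HF, against 24.7 in Control, 13.3 in PGM, 18.3 in PGF and 14.7 in HM, and Itih2 at 11.9, 8.75, 4.5, 6.33 and 4.86 in the same order. All of these likenesses rest on 5 group means and are descriptions only.

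**Figure D4:**
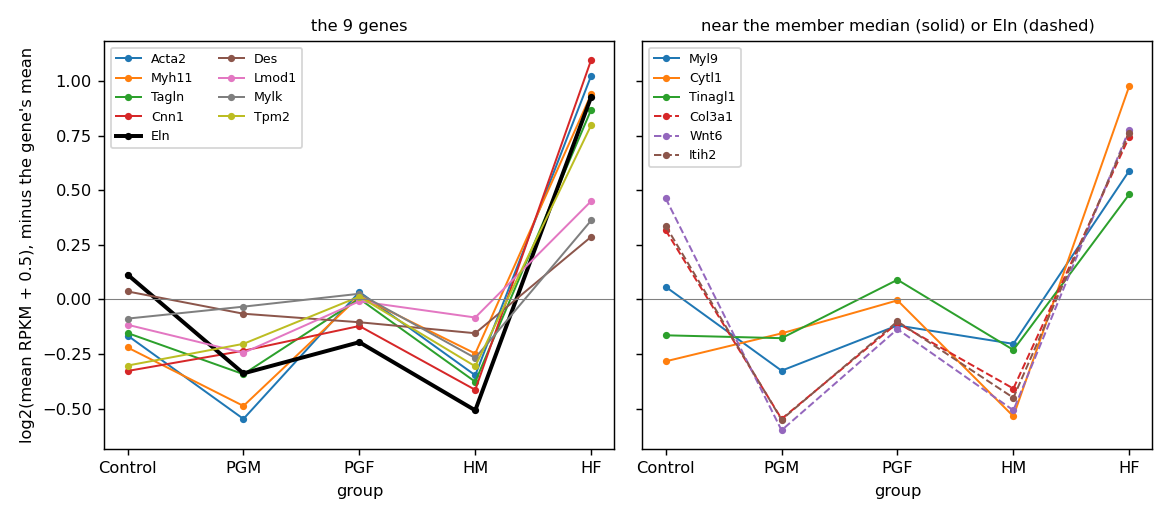
Profiles over the 5 groups on the log2(mean RPKM + 0.5) scale, each minus its own mean (vertical axis); lines join the groups only to guide the eye. Left, the 9 genes with Eln in bold, which is above its mean in Control (0.11) where Acta2 is below it (-0.17). Right, 3 genes near the median of the 9 (solid) and 3 near Eln (dashed).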

How the data were processed

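Total RNA of 15 hypothalamus samples was sequenced, and the deposited table holds the authors' mean RPKM of each group of 3 for 49404 transcripts, with no value per sample. FastQC, Novoalign 2.08 and the mouse build mm10 are named per the submitters' processing notes. The sources used here name no counting tool, no handling of reads shared between transcripts or genes, no read length and no depth. RPKM removes depth and transcript length, so neither counting error nor a detection floor can be given.

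After 1 stray header row was left out, values were reduced to the median over the transcripts of each of 24831 gene names and compared as log2(mean RPKM + 0.5). The background was the 17481 names whose group means averaged 1 RPKM or more. Genes were counted from 1.5-fold, ties included, in 6 comparisons. A limma test, planned for values per sample, was not used because the table holds means. The scripts were tested on simulated data.

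The 9 genes and the 16 other gene lists were chosen with earlier results of these data known. Of 207 listed names 4 were not found. Named genes were the 9, the 10 nearest profiles and 5 nearest to Eln, and up to 4 genes per list with the largest difference, plus Srf, Myocd, Notch3, Myl9, Actg2, Fbn1, Lox and Fbln5. Actc1, Ckm, Myh1, Myh2, Tnnc2, Mfap5, Emilin2, Slc4a1, Trh and Xist fall outside that rule and were chosen after their values were seen. Promoter windows came from RefSeq (GRCm38.p6), gene positions and actin reading frames from GENCODE M21. Python 3.11.15, numpy 2.4.6, pandas 2.3.3 and matplotlib 3.10.9 were used. Alternatives varied the pseudocount, filter, scaling, transcript reduction, fold threshold and reference group.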

Additional observations from a re-analysis of the deposited data

How the results depend on the processing

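Among 425 values recomputed under 16 alternative settings, no difference past 1.5-fold changed sign, and 7 smaller ones did, all in HM against Control. Mylk went from -0.18 to 0.12 with the transcript of the highest mean, Myh11 from -0.03 to 0.007 with median scaling, and Tpm2 from -0.004 to between 0.01 and 0.04 with upper quartile or median scaling and with the highest transcript, the mean or the sum. The count of 6 of 9 genes higher in HF than in Control stayed within 1.5 times under every setting run. Of the 9 genes, 1 (Acta2) was past 1.5-fold between PGM and PGF with a pseudocount of 0.1, with upper quartile scaling and with median scaling, 3 at the lower of the alternative thresholds, and 2 between PGM and Control at that threshold. Between HM and Control 0 were past it with median scaling or a 2-fold threshold. With HF as the reference, 7 (PGM), 6 (PGF) and 7 (HM) were past it. With the transcript of the highest mean, the median of the 9 genes in HM against Control was -0.014. Lmod1 differed by 0.76 between HF and Control with a pseudocount of 0.1.

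The background counts of genes past the threshold, 811 (PGM), 709 (PGF), 270 (HM) and 146 (HF) against Control, 173 between PGM and PGF and 293 between HM and HF, moved most. With a pseudocount of 0.1 the PGM against PGF count was 272. Without a filter, HM, HF, PGM against PGF and HM against HF gave 499, 367, 389 and 521, and with a mean of at least 3 RPKM 172, 76, 93 and 182. In the order first given, a 2-fold threshold gave 145, 148, 38, 54, 50 and 46, and the lower one 2994, 2815, 1546, 642, 915 and 1273. These shifts follow from the threshold or the number of genes kept, except under the pseudocount, where the cause was not tested. No paired analysis was possible because the table holds 1 mean per group, and for the same reason no replicate could be left out. Depth is unknown, so the precision of genes near 1 RPKM, such as Cnn1 and Lmod1, cannot be given.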
